A study of Mus musculus with 10 samples.

Results

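The 6 genes described here, Coch, Tll1, Chn2, Pim3, Ddah1 and Adgrl2, set the salivary glands of young NOD/shiLtJ mice apart from those of older mice without diabetes. They were chosen from the measured values: on each of them the arrays of the 6-week and of the nondiabetic 21-week mice do not overlap, and by the limma fit they stood among the strongest differences of that contrast. Each was read from its brightest probe set carrying only that symbol, 6 of 18826 genes tested, and each had 1 such probe set. All 6 passed the filter on dim values, and 0 of their 60 values lay below the 25th percentile of the array. What the choice did not use is the third group, the diabetic mice, and the question is which of the 6 keep the separation there.

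Cells were isolated from the salivary gland of female NOD/shiLtJ mice, a strain that develops autoimmune diabetes and, in its glands, lymphocytic inflammation. RNA was hybridised to 10 Affymetrix arrays: 4 from 21-week-old mice with type 1 diabetes, 3 from 21-week-old mice without diabetes and 3 from 6-week-old mice without diabetes. All groups share the strain and the sex, mice of a strain without autoimmunity were not analysed here, and every diabetic mouse was 21 weeks old, so a difference between diabetic and 6-week mice holds both age and disease. The labels number the samples within each group and name neither the gland taken nor the duration of diabetes. They do not say whether cells of several mice were pooled. Precision is limited by how few arrays there are.

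Of the nondiabetic 21-week arrays, the third differed most from all others, with correlations of 0.901 to 0.93 over all probe sets, and array 4 of the diabetic group was the highest in lymphocyte genes. Values without these arrays are given where they change a result. The salivary identity was borne out by markers of the gland: all 10 listed parotid-type serous genes and 13 of 18 granular convoluted tubule genes were measured, with mean log2 levels of 7.30 to 11.17 and 5.47 to 10.28 over the arrays. Exocrine pancreas markers had a mean level of 3.22 to 3.92 and skeletal muscle markers of 3.80 to 4.02, near the array medians of 3.53 to 3.69.

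The 6 genes belong to no single pathway. Coch encodes cochlin, a secreted matrix protein best known from the inner ear and also made by follicular dendritic cells of lymphoid tissue. Tll1 encodes a secreted metalloprotease of the tolloid family, which trims procollagens and releases bone morphogenetic proteins by cutting their antagonist chordin. Adgrl2 encodes a latrophilin, an adhesion receptor that binds teneurins and FLRT proteins on neighbouring cells. The other 3 act inside the cell. Ddah1 breaks down methylarginines, natural inhibitors of nitric oxide synthase, Chn2 (beta-chimaerin) switches off the small GTPase Rac when diacylglycerol recruits it, and Pim3 is a survival kinase that is active as soon as it is made, so that its amount is set largely by synthesis and decay.

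In the diabetic arrays, which the choice did not use, all 6 genes kept the separation in the sense that no diabetic array overlapped a 6-week array. The same holds for 16.7% of all genes tested. The 6-week arrays in this count were used to choose the 6 genes, so that share is not a like background. The size of the separation was not kept alike. Coch, Tll1, Ddah1 and Adgrl2 stood in the diabetic glands near their nondiabetic 21-week level and passed the test against the 6-week mice, 4 of 6 where 1.44% of all genes passed. Chn2 lay midway and Pim3 close to the young level, and neither passed. Against the nondiabetic mice of the same age, Pim3 was 1.78-fold higher in diabetic glands and was the 1 of 6 that passed, where 1.44% of all genes passed. Each of these tests has on 1 side arrays that were used to choose the genes, so their p-values are not independent of the choice. Choosing genes by a large difference also tends to overstate that difference. Where the diabetic mean lies between the other means, its difference from each of them then tends to be overstated too. How this moves the share of the difference seen in the diabetic arrays was not estimated. The contrast of the nondiabetic 21-week with the 6-week arrays chose the genes and is given without a test: there 6 of 6 genes had no overlap, as the choice requires, and so had 13.8% of all genes tested, while 0.0266% of all genes passed the limma test.

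**Figure D1:**
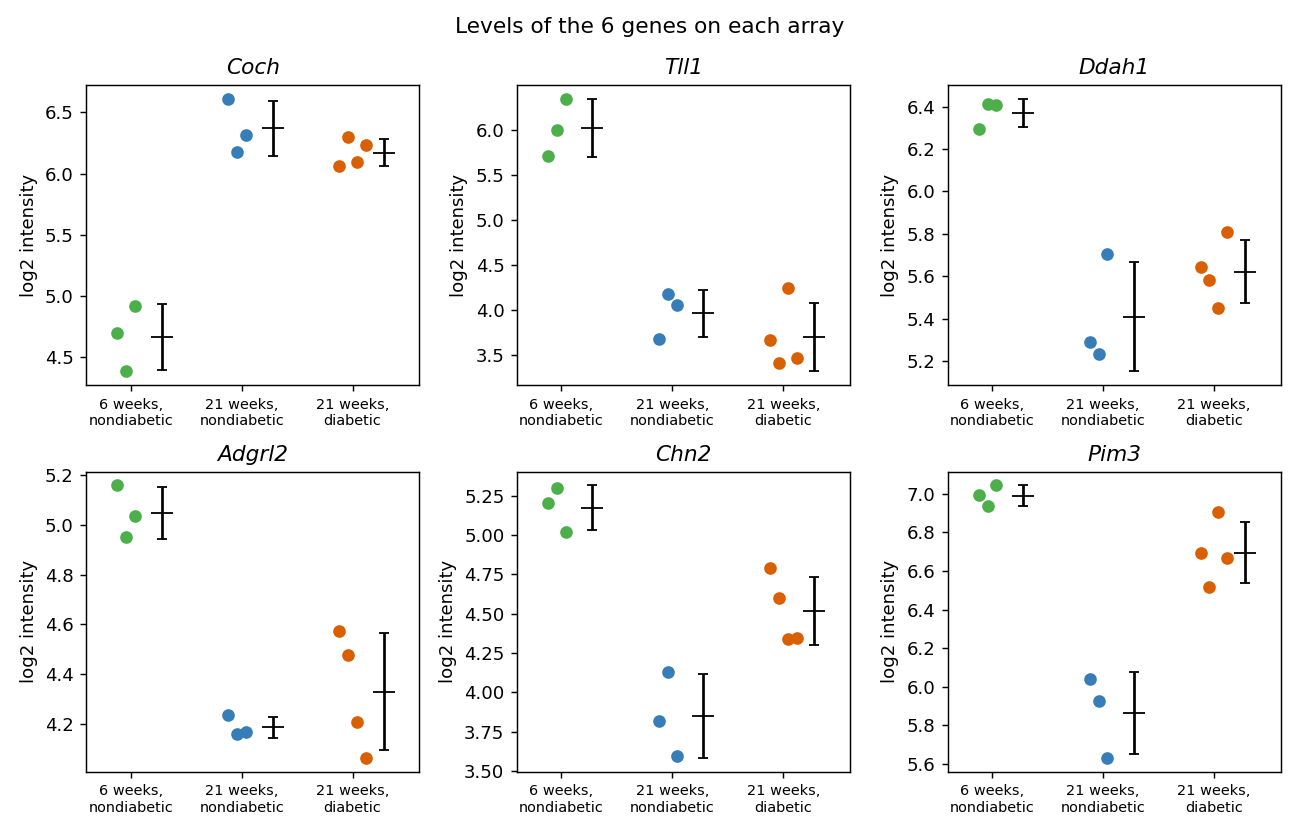
Log2 intensity (vertical axis) of each gene on each array, by group; points are arrays and the bar beside them is the group mean with 1 SD (n = 3, 3 and 4). The diabetic arrays of Coch, Tll1, Ddah1 and Adgrl2 sit at or near the nondiabetic 21-week arrays, those of Chn2 between the other groups, and those of Pim3 (6.52 to 6.90) just under the 6-week arrays (6.94 to 7.04).

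Coch was the gene that was higher in older glands. Its log2 intensities (probe set 17275378) were 4.70, 4.39 and 4.92 at 6 weeks, 6.61, 6.18 and 6.31 in nondiabetic mice at 21 weeks and 6.06, 6.29, 6.10 and 6.23 in diabetic mice. All 7 older arrays thus lay above all 3 young ones, and the lowest diabetic array was 1.14 above the highest 6-week array. The difference that chose the gene was 1.70 ± 0.16 (SE of the fit), a 3.25-fold higher level at 21 weeks. Between diabetic and 6-week mice Coch rose 2.83-fold (1.50 ± 0.15, limma adjusted p = 0.00127). The diabetic group was the tightest of the 3, with an SD of 0.11 against 0.22 and 0.27. Between diabetic and nondiabetic 21-week mice the difference was −0.20 ± 0.15 (adjusted p = 0.562), with a 95% interval of −0.53 to 0.13. It was −0.08 without nondiabetic array 1 (adjusted p = 0.86), −0.29 without nondiabetic array 2 (0.433) and −0.33 with quantile normalization (0.326). In RNA pooled from all cells of a sample, fewer cells of a type and less RNA per cell cannot be told apart, for this gene and for those below.

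Lymphocyte markers were also lowest at 6 weeks. The mean level of the T cell list (8 of 10 genes measured) was 3.52 to 3.82 at 6 weeks, 4.03 to 4.79 in nondiabetic mice at 21 weeks and 4.37 to 5.51 in diabetic mice. The B cell list (8 of 9 measured) was at 3.37 to 3.48, 3.66 to 4.23 and 3.78 to 5.37. Neither list overlapped between the 6-week mice and either older group. Between diabetic and 6-week mice 5 of 8 genes of each list (62.5%) had an unadjusted limma p under 0.05, where 14.9% of all genes did. After adjustment 1 T cell gene and 0 B cell genes passed, where 1.44% of all genes passed. Cr2, a complement receptor of B cells and follicular dendritic cells, differed between diabetic and 6-week mice by 0.56 (adjusted p = 0.198) and Cd79a, part of the B cell receptor, by 1.34 (adjusted p = 0.131). In diabetic array 4, whose lymphocyte levels were the highest, Coch was at 6.23, inside the range of the other diabetic arrays. The part of lymphocytes in the Coch difference was not tested.

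The genes whose levels followed Coch most closely over the 10 arrays were Slfn2, a regulator of immune cell quiescence (Pearson r = 0.935), B2m, the invariant chain of MHC class I molecules (r = 0.92), and Psmb8, an immunoproteasome subunit (r = 0.918). Such coefficients mainly restate the gap between young and older arrays, since the arrays fall into separate groups. Between diabetic and 6-week mice Slfn2 rose by 1.36 (limma adjusted p = 0.0107), B2m by 1.30 (adjusted p = 0.00473) and Psmb8 by 0.88 (adjusted p = 0.0311). B2m lay between 9.59 and 9.81 at 6 weeks, between 10.71 and 11.19 in nondiabetic and between 10.59 and 11.36 in diabetic mice at 21 weeks. Between the older groups the differences were −0.15, 0.10 and −0.10 (adjusted p = 0.783, 0.832 and 0.829).

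The promoters of Coch, Tll1 and Pim3 are shown because these genes represent the rise, the largest fall and the fall that diabetic glands shared least. Each is the 250 bases before the annotated start in RefSeq (build GRCm38.p6), read 5′ to 3′, in lower case. Capitals mark the GC box, searched as GGGCGG on both strands, and the box named for its letters, CCAAT, likewise searched on both strands.
Coch promoter, chr12:51593091-51593340, plus strand: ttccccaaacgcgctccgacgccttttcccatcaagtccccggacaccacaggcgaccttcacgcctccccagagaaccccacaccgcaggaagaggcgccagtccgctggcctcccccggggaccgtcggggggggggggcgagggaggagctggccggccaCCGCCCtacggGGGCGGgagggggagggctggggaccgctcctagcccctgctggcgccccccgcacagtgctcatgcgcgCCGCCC
Tll1 promoter, chr8:64206009-64206258, minus strand: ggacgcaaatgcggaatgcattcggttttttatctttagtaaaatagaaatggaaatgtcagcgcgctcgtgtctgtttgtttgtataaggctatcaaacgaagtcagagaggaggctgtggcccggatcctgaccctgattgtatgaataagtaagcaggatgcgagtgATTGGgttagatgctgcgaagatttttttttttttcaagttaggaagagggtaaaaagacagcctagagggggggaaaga
Pim3 promoter, chr15:88861944-88862193, plus strand: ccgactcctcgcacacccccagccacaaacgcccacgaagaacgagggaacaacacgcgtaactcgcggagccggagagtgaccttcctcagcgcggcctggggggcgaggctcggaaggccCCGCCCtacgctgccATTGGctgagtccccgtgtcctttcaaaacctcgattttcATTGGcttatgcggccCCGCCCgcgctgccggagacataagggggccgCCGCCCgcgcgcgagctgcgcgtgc
The RefSeq table matched all 6 genes, Chn2 with 4 start sites. Of its 32851 windows, 32.7% held a GC box and 33.8% a CCAAT box on either strand. Coch and Pim3 held GC boxes, Tll1, Pim3 and 1 window of Chn2 a CCAAT box. The content of G and C was 74.8% for Coch, 43.2% for Tll1 and 68% for Pim3, against a median of 52.4% over all windows, so these 3 windows differ in composition. Of the other motifs searched on both strands, the STAT site TTCNNNGAA was present in Adgrl2 (7.02% of all windows), the glucocorticoid receptor motif TGTTCT in 2 windows of Chn2 (16.1%) and TATAAA in Adgrl2 (12.4%). The cAMP response element TGACGTCA (1.55%), the AP-1 site (6.75%), the E-box CACGTG (6.02%), the oestrogen response element (0.0639%) and the core of the serum response element (0.0609%) had 0 matches in these windows.

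Tll1 had the largest difference of the 6. Its log2 intensities (probe set 17509591) were 5.71, 6.00 and 6.35 at 6 weeks, 3.67, 4.17 and 4.05 in the nondiabetic and 3.67, 3.42, 4.24 and 3.46 in the diabetic 21-week arrays. The range of the diabetic arrays enclosed that of the nondiabetic ones, with 3 diabetic arrays below the nondiabetic range and 1 above. Both groups lay well below the young arrays, from which the nearest diabetic array was 1.47 away. At 6 weeks the probe set lay on average at the 89.1th percentile of the array and in diabetic mice at the 50.8th, near the middle of all probe sets. The signal this probe set gives without its transcript was not measured, so the folds are those of the intensities. The difference that chose the gene was −2.05 ± 0.23, or 4.15-fold. Between diabetic and 6-week mice Tll1 fell 5.00-fold (−2.32 ± 0.21, limma adjusted p = 0.000888). Diabetic array 3 was the highest of its group, and without it the fall was −2.50. The diabetic and nondiabetic 21-week mice differed by −0.27 ± 0.21 (adjusted p = 0.577, 95% interval −0.73 to 0.20). That difference was −0.45 without diabetic array 3 and −0.42 without nondiabetic array 1 (adjusted p = 0.354 and 0.407). It was −0.18 without diabetic array 2, −0.17 without nondiabetic array 2 and −0.15 without both arrays that stand apart (0.776, 0.783 and 0.819).

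The other members of the tolloid family did not pass the test. Bmp1, the founding procollagen C-proteinase, differed between diabetic and 6-week mice by −0.29 ± 0.27 (adjusted p = 0.678) and Tll2, which was dim, by −0.23 ± 0.12 (adjusted p = 0.387), the 1 relative of the 6 genes whose diabetic and 6-week arrays did not overlap. Of the 19 measured genes in a list of tolloid proteases, their cofactors and substrates, Tll1 was the 1 that fell in this comparison, 0 rose and 18 did not pass (list median −0.01, all genes −0.02). Substrates were among those that did not pass, and their signs differed. Col1a1 differed by −0.67 (adjusted p = 0.206), Col3a1 by −0.94 (0.238), Col1a2 by −0.39 (0.583) and Col5a1 by −0.23 (0.597). Bgn differed by 0.56 (adjusted p = 0.447), Lox by 0.41 (0.302) and the antagonist Chrd by −0.01 (0.982). Between the nondiabetic groups the list median was −0.30 against −0.06 for all genes. Wfdc12, a secreted protease inhibitor, followed Tll1 most closely over the 10 arrays (r = 0.94), followed by Mt3, a metallothionein, and Rnft1 (r = 0.924 for both). Wfdc12 differed between diabetic and 6-week mice by −0.69 (adjusted p = 0.061), and Mt3 and Rnft1 by −0.21 and −0.26 (adjusted p = 0.399 and 0.264).

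Adgrl2, the latrophilin, was lower in older glands of both kinds. Its log2 intensities (probe set 17411103) were 5.16, 4.95 and 5.03 at 6 weeks, 4.23, 4.16 and 4.16 in the nondiabetic and 4.57, 4.48, 4.20 and 4.06 in the diabetic 21-week arrays. The nondiabetic arrays were nearly level, with an SD of 0.04. The diabetic arrays spread over 0.51 around them, arrays 1 and 2 above and array 4 below, and the highest stayed 0.38 under the lowest young array. The difference that chose the gene was −0.86 ± 0.15 (1.82-fold), and between diabetic and 6-week mice Adgrl2 fell 1.65-fold (−0.72 ± 0.14, limma adjusted p = 0.0285). Between the older groups the difference was 0.14 ± 0.14 (adjusted p = 0.655, 95% interval −0.16 to 0.45). It was 0.06 without diabetic array 1, 0.09 without diabetic array 2 and 0.23 without diabetic array 4 (adjusted p = 0.872, 0.824 and 0.398). The call against the 6-week mice was lost without diabetic array 3 (adjusted p = 0.0896) and without 6-week array 1, 2 or 3 (adjusted p = 0.112, 0.0786 and 0.112). It was kept without both arrays that stand apart.

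Among its relatives, Adgrl4, a receptor of blood vessels, had the same sign with a wide spread: 6.54, 5.79 and 6.47 at 6 weeks, 5.91, 5.56 and 5.13 in the nondiabetic and 5.81, 5.33, 6.35 and 5.26 in the diabetic 21-week arrays. Its groups overlapped, and between diabetic and 6-week mice it differed by −0.58 ± 0.28 (adjusted p = 0.35). Adgrl1 differed by −0.15 ± 0.23 (adjusted p = 0.82) and Adgrl3 by 0.12 ± 0.20 (adjusted p = 0.837). In the list of latrophilins with their teneurin, FLRT and neurexin ligands, Adgrl2 was the 1 of 16 measured genes that fell, 0 rose and 15 did not pass (list median −0.07). Endothelial markers (10 of 10 measured) had mean levels of 5.53 to 5.88 at 6 weeks, 5.03 to 5.52 in the nondiabetic and 5.19 to 5.66 in the diabetic 21-week arrays. They did not overlap between the nondiabetic 21-week and the 6-week arrays, where they were lower at 21 weeks, as Adgrl2 was. They overlapped between the diabetic and the 6-week arrays, with a difference of means of −0.34. The part of endothelial cells in the Adgrl2 difference was not tested. Over the 10 arrays Adgrl2 was followed most closely by Pigyl (r = 0.966), Mthfd2, a mitochondrial enzyme of folate metabolism (r = 0.963), and Strap (r = 0.944). Mthfd2 differed between diabetic and 6-week mice by −0.56 (adjusted p = 0.0832), Pigyl by −0.37 (adjusted p = 0.159) and Strap by −0.25 (adjusted p = 0.325).

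Ddah1, the methylarginine hydrolase, had log2 intensities (probe set 17403439) of 6.30, 6.41 and 6.41 at 6 weeks, 5.29, 5.23 and 5.70 in the nondiabetic and 5.64, 5.58, 5.45 and 5.81 in the diabetic 21-week arrays. The young arrays lay within 0.12 of each other. Nondiabetic array 3, which stands apart over all probe sets, was the highest of its group, and 3 of the 4 diabetic arrays fell inside the range it opens. The difference that chose the gene was −0.96 ± 0.15 (1.95-fold). Between diabetic and 6-week mice Ddah1 fell 1.68-fold (−0.75 ± 0.14, limma adjusted p = 0.0247), with 0.49 between the nearest arrays. The difference between the older groups was 0.21 ± 0.14 (adjusted p = 0.491, 95% interval −0.09 to 0.52). It was 0.36 without nondiabetic array 3 (adjusted p = 0.296) and 0.13 without nondiabetic array 2 (0.742). The call against the 6-week mice was lost without diabetic array 2 (adjusted p = 0.0608) or 3 (0.0809) and without 6-week array 1, 2 or 3 (0.0677, 0.101 and 0.112).

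Ddah2, the other enzyme of this kind, differed between diabetic and 6-week mice by 0.16 ± 0.17 (adjusted p = 0.715) and between the older groups by 0.04 ± 0.17 (adjusted p = 0.944). Of 20 measured genes of methylarginine turnover and nitric oxide signalling, Ddah1 was the 1 that fell against the 6-week mice, 0 rose and 19 did not pass (list median −0.08). Slc7a1, which carries arginine into cells, differed by −0.52 (adjusted p = 0.0862), Prmt1, the main enzyme that methylates arginine, by 0.54 (adjusted p = 0.159), and Nos3, the endothelial synthase, by −0.12 (adjusted p = 0.809). B9d1 (r = 0.916), the lipid kinase Cerk (r = 0.895) and Supt7l (r = 0.892) followed Ddah1 most closely, and their differences between diabetic and 6-week mice were −0.29, −0.41 and −0.10 (adjusted p = 0.251, 0.218 and 0.728).

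**Figure D2:**
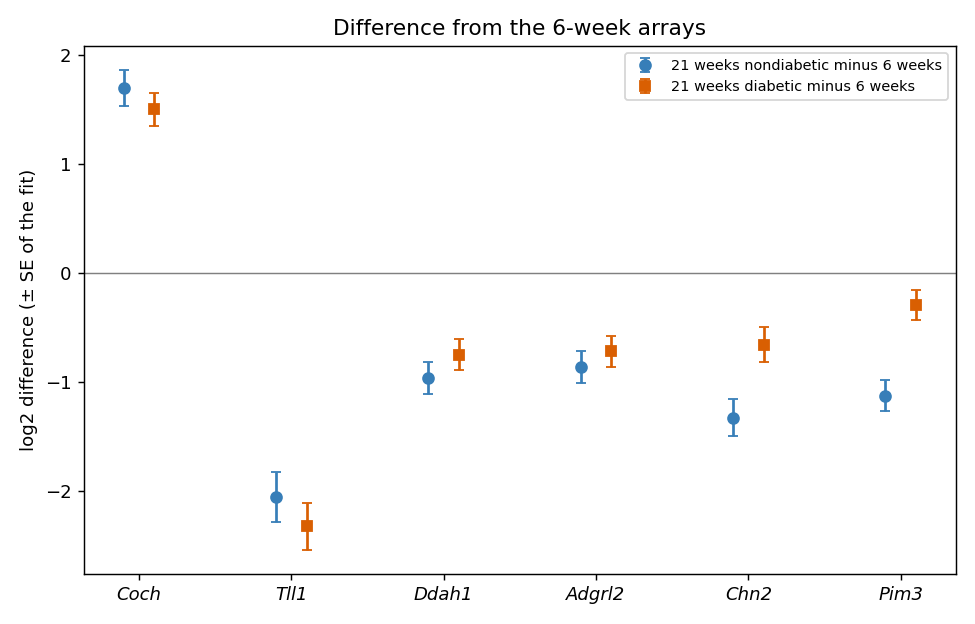
Log2 difference from the 6-week arrays (vertical axis, ± SE of the fit) for each gene in nondiabetic (circles, n = 3) and diabetic (squares, n = 4) 21-week mice. The 2 symbols lie close for Coch, Tll1, Ddah1 and Adgrl2 and apart for Chn2 (−1.33 and −0.66) and Pim3 (−1.12 and −0.29).

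Chn2, beta-chimaerin, took 3 separate levels. Its log2 intensities (probe set 17458692) were 5.20, 5.30 and 5.02 at 6 weeks, 3.82, 4.13 and 3.60 in the nondiabetic and 4.79, 4.60, 4.34 and 4.34 in the diabetic 21-week arrays. No pair of groups overlapped: the diabetic arrays lay 0.23 under the nearest young array, and all 4 lay above the nondiabetic range. Their mean stood 49.5% of the way from the 6-week to the nondiabetic 21-week mean, whereas that share was 88.4% for Coch, 113% for Tll1, 83.3% for Adgrl2 and 77.9% for Ddah1. The difference that chose the gene was −1.33 ± 0.17 (2.51-fold). Chn2 differed between diabetic and 6-week mice by −0.66 ± 0.16 (limma adjusted p = 0.0675) and between diabetic and nondiabetic 21-week mice by 0.67 ± 0.16 (adjusted p = 0.0628), so that neither passed. Without nondiabetic array 3 the first passed (adjusted p = 0.0415), and without nondiabetic array 2 the second (0.81, adjusted p = 0.043). The first also passed with quantile normalization (adjusted p = 0.0421) and with array weights (0.0305), and the second with median centring (0.0485) and with the stricter filter on dim probe sets (0.0449).

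Chn1, the other chimaerin, was dim, below the 25th percentile on 4 of the 10 arrays, and differed between diabetic and 6-week mice by −0.01 ± 0.13 (adjusted p = 0.976). Of 18 measured genes of chimaerin and Rac signalling, 0 passed by limma in either comparison with diabetic mice, and 7 and 3, Chn2 among them in both, had an unadjusted p under 0.05 (against 6-week and nondiabetic 21-week mice). These are 38.9% and 16.7% of the list, where 14.9% and 15.8% of all genes had such a p, so the second share is near that of all genes. After Chn2 the lowest p against the 6-week mice belonged to Elmo1, part of an activator of Rac (0.53, adjusted p = 0.0985), Arhgap15, a Rac inhibitor of blood cells (1.46, adjusted p = 0.118), and Rac2, the GTPase of blood cells (0.86, adjusted p = 0.171). Usf3 (r = 0.942), Impdh1, an enzyme of guanine nucleotide synthesis (r = 0.934), and Ube2f (r = 0.931) followed Chn2 most closely. Their diabetic means also lay between those of the other groups, and in the comparison with nondiabetic 21-week mice they differed by 0.15, 0.27 and 0.29 (adjusted p = 0.535, 0.289 and 0.276).

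Pim3 was the gene whose separation shrank most in diabetic mice. Its log2 intensities (probe set 17314011) were 6.99, 6.94 and 7.04 at 6 weeks, 6.04, 5.93 and 5.63 in the nondiabetic and 6.69, 6.52, 6.90 and 6.67 in the diabetic 21-week arrays. The diabetic arrays lay under the young ones by only 0.03 at the nearest point, less than the SD of either group (0.16 and 0.05), and all 4 were nearer to the 6-week than to the nondiabetic 21-week mean. The difference that chose the gene was −1.12 ± 0.14 (2.18-fold), of which the diabetic mean showed 26.2%. Both groups that define this share were used in the choice. Against the 6-week mice the diabetic difference was −0.29 ± 0.14 (limma adjusted p = 0.332). Against the nondiabetic mice of the same age Pim3 rose 1.78-fold (0.83 ± 0.14, adjusted p = 0.0105), higher in 4 of 4 diabetic arrays than in any of the 3 nondiabetic ones, a separation that 14.1% of all genes show. The call held with each array left out in turn, with adjusted p up to 0.0471 (without nondiabetic array 3), and without both arrays that stand apart (0.0422).

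Genes of the response to tissue dissociation, which are induced within minutes of handling, were measured for 16 of 16 listed. Their mean level was 6.52 to 6.87 in the 6-week arrays, 6.59 to 6.85 in the nondiabetic and 7.63 to 8.14 in the diabetic 21-week arrays. In the diabetic mice 13 of the 16 rose against nondiabetic mice of the same age, 0 fell, and the list median was 1.10 (all genes 0.03). The list was thus high in the arrays in which Pim3 was higher than in their age group, and its part in that difference was not tested. The list overlapped between the 6-week and the nondiabetic 21-week arrays, which Pim3 separated. The mix of gland secretions also differed, with parotid-type serous genes at 10.90 to 11.17 in diabetic, 7.30 to 8.78 in nondiabetic 21-week and 7.71 to 10.02 in 6-week arrays. The granular convoluted tubule genes were at 5.47 to 7.39, 9.63 to 10.28 and 8.57 to 9.03 in the same groups. The part of this mix in any of the 6 differences was not tested.

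**Figure D3:**
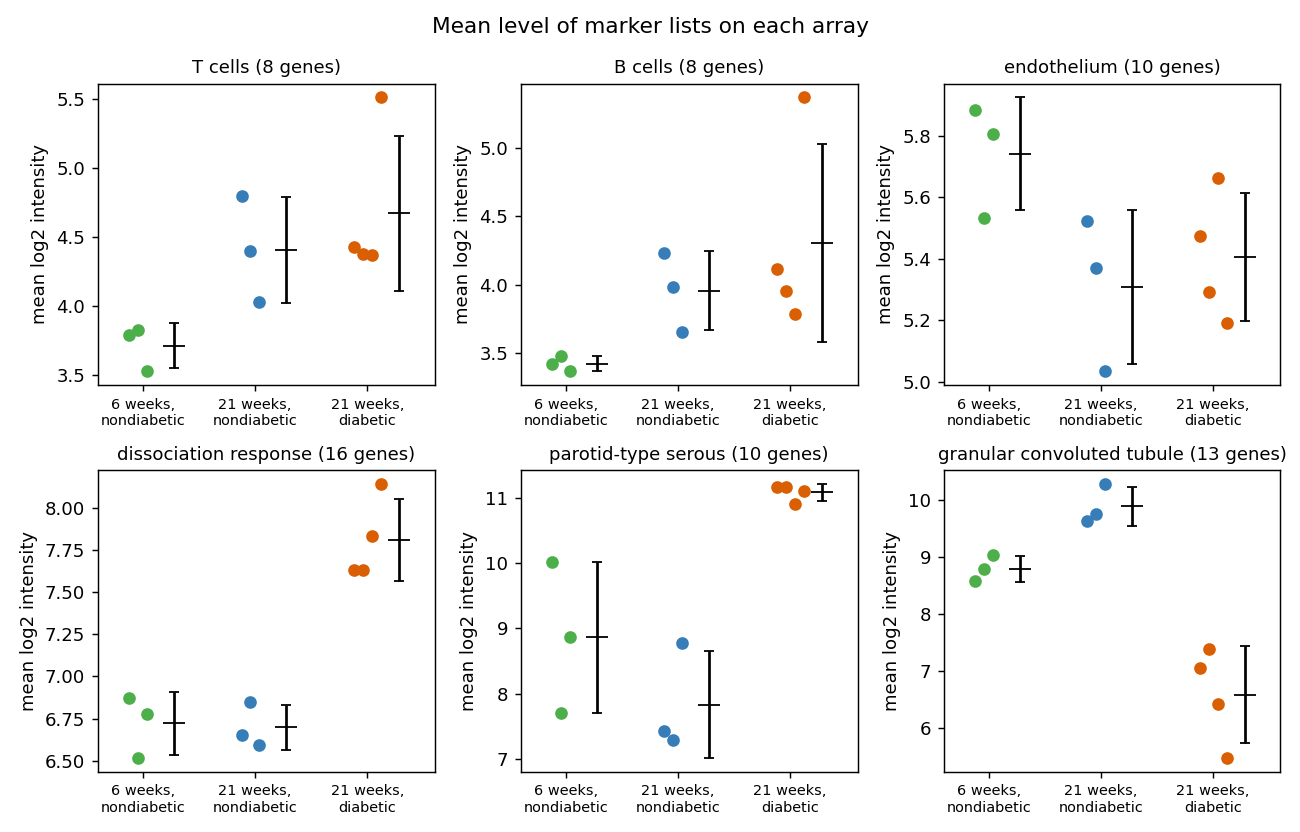
Mean log2 intensity of the measured genes of 6 marker lists on each array (vertical axis), by group, with the group mean and 1 SD (n = 3, 3 and 4). T and B cell lists are lower in the 6-week arrays than in either older group, and the dissociation response is high in the diabetic arrays alone (7.63 to 8.14).

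The other Pim kinases did not pass in the comparison in which Pim3 rose. Pim1 differed between diabetic and nondiabetic 21-week mice by 0.22 ± 0.23 (adjusted p = 0.68) and Pim2 by 0.04 ± 0.19 (adjusted p = 0.946). The list of the Pim family with its upstream STAT and cytokine feedback genes had 20 measured genes (median in this comparison 0.26, all genes 0.03). Pim3 was the 1 that rose, 0 fell and 19 did not pass. Of the 20, 9 (45%) had an unadjusted limma p under 0.05, Pim3 among them, where 15.8% of all genes had such a p. Against the 6-week mice 10 (50%) had such a p, where 14.9% of all genes did. Nearest to passing were Mcl1, a survival factor (0.55, adjusted p = 0.0502), Socs3, a feedback inhibitor of cytokine signalling (1.12, adjusted p = 0.065), and the kinase Jak2 (0.64, adjusted p = 0.0749). Socs3 is also on the list of the dissociation response. Stat3 differed by 0.32 (adjusted p = 0.263). Nt5dc2 was the gene closest to Pim3 over the 10 arrays (r = 0.975), with 6.32 to 6.51 at 6 weeks, 5.34 to 5.71 in the nondiabetic and 5.95 to 6.37 in the diabetic 21-week arrays. It differed between the older groups by 0.57 (adjusted p = 0.065). Ubr2, a ubiquitin ligase, and Pds5a, a cohesin regulator, came next (r = 0.927 and 0.924) and differed there by 0.22 and 0.21 (adjusted p = 0.38 and 0.375).

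**Figure D4:**
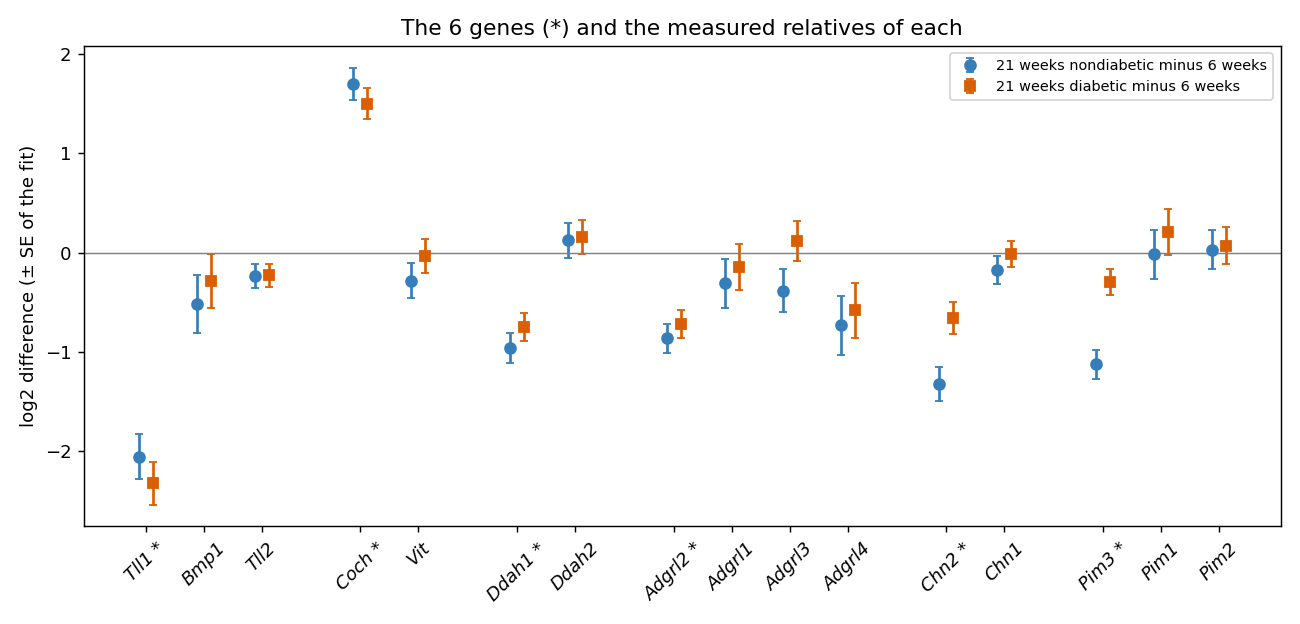
Log2 difference from the 6-week arrays (vertical axis, ± SE of the fit) for the 6 genes, marked with an asterisk, and their 10 measured relatives, in nondiabetic (circles, n = 3) and diabetic (squares, n = 4) 21-week mice. The relatives lie between −0.73 (Adgrl4, nondiabetic) and 0.21 (Pim1, diabetic), and 0 of the 10 passed the limma test in either comparison with diabetic mice, where 0 (against 6-week) and 1 (against nondiabetic 21-week) had an unadjusted p under 0.05.

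Deviations from the group means showed how far the 6 genes vary together beyond the groups. Over the 10 arrays and 15 pairs of genes their correlations ran from −0.72 (Pim3 and Ddah1) to 0.54 (Chn2 and Adgrl2), values that rest on few arrays and on shared array effects. By the p of the contrast that chose them, the 6 genes held ranks 1, 2, 4, 5, 7 and 11 of the 2604 genes whose 6-week and nondiabetic 21-week arrays did not overlap. Next before Adgrl2, the last of them, stood B2m and Ccn1, which are not among the 6. Ccn1, a matrix protein induced by growth factors, differed between the nondiabetic groups by −0.73. Next after it stood Klk1b24, a kallikrein of the granular convoluted tubule (1.52, with 1.10 between the nearest arrays), and Nt5dc2 (−0.86, with 0.61 between them), against −0.86 and 0.72 for Adgrl2. In diabetic mice these 4 neighbours took different courses. B2m, like Adgrl2, stayed on the older side, without overlap with the 6-week arrays. The diabetic arrays of Nt5dc2 (5.95 to 6.37) overlapped the 6-week arrays (6.32 to 6.51). Ccn1 lay at 6.65 to 6.89, above the 6-week arrays (6.43 to 6.49), and Klk1b24 at 5.61 to 6.83, below them (7.40 to 7.72).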

How the data were processed

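Salivary gland cells of female mice were measured on 10 Affymetrix arrays. The authors deposited 1 log2 intensity for each probe set and array. Per the submitters' processing notes these come from RMA, run with Affymetrix Power Tools; its version and settings were not given in the sources used here. Of 41345 probe sets, 23521 carried a single gene symbol in the platform table, and the others were left out. Of the 23521, 23328 matched RefSeq by gene identifier, and this match was not used as a filter. A probe set was kept where it exceeded the array's 25th percentile on at least 3 arrays, and the brightest stood for its gene, which left 18826 genes. A linear model with a mean per group was fitted to all 10 arrays with limma 3.58.1 in R 4.3.3 (7 residual and 5.61 prior degrees of freedom). Tests were two-sided, with Benjamini-Hochberg adjustment over all genes and a threshold of 0.05, and p-values rest on the spread between these samples. SE are those of the fit, SD those of the arrays. The steps were tested on simulated data. The 6 genes, the gene lists, the motifs and the tests were chosen with earlier results of these data known. Genes named besides the 6 were, for each, the 3 with the highest Pearson correlation over the arrays (predicted models left out), the neighbours in rank of the last of them, their relatives, and list members; values of list and marker genes that did not pass were picked for their role or small p after their values were seen. Alternatives were quantile normalization, median centring, no filter, a filter at the array median, averaging over probe sets of a gene, fits of 2 groups, trended or robust variance, array weights, an adjusted p under 0.01, leaving out each array, and a block for the replicate number. Leaving out both arrays that stand apart was added after seeing the data.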

Additional observations from a re-analysis of the deposited data

How the results depend on the processing

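The absence of overlap between diabetic and 6-week arrays held for 6 of 6 genes with quantile normalization and with median centring. The other alternatives could not undo it, since they only remove arrays or leave the values of these genes as they are. Over the 22 alternatives 0 differences of the 6 genes changed sign. The number past the test against the 6-week mice, 4, was 2 at an adjusted p under 0.01 and 2 to 5 with 1 array left out. It was 2 without diabetic array 3 and without any of the 6-week arrays, and the genes lost were Ddah1 and Adgrl2. The number past the test against nondiabetic 21-week mice, 1, was 0 at an adjusted p under 0.01 and 1 to 2 with 1 array left out. It was 2, with Chn2 beside Pim3, with median centring, with the filter at the array median and with the replicate block. The labels do not say whether the replicate numbers pair the samples. Deviations of same-numbered arrays correlated at −0.12 to 0.07 over 9 pairs, and 2 of 9 arrays correlated best with their own number. With so few arrays this cannot exclude a shared batch. With the block Adgrl2 lost its call against the 6-week mice (adjusted p = 0.061). Over all genes, the 272 calls against the 6-week mice became 672 with array weights, 508 without both arrays that stand apart, 58 at an adjusted p under 0.01 and 48 to 400 with 1 array left out. The 271 calls against nondiabetic 21-week mice became 161 in a fit of those groups alone, 176 without both arrays, 69 at 0.01 and 84 to 267 with 1 array left out. The 5 calls between the nondiabetic groups became 0 in a fit of those groups alone (limma, 1377 with an unadjusted p under 0.05), 9 with trended variance, 18 with array weights, 42 without both arrays, 3 at 0.01 and 1 to 10 with 1 array left out. With quantile normalization 49.2% of the calls against 6-week and 56.5% of those against nondiabetic 21-week mice were rises, against 62.5% and 76.4%. The cause of these shifts was not tested. The background of single probe sets was not measured. Chn1 lay below the 25th percentile on 4 of 10 arrays, and Tll1 in older mice near the middle of the array.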

Other observations

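Apart from the 6 genes, the 8 lists of their pathways, of proliferation and of postnatal growth held 119 measured genes. By limma 0 of them passed in any of the 3 comparisons, while 25, 20 and 14 (21%, 16.8% and 11.8%) had an unadjusted p under 0.05 (diabetic against 6-week, diabetic against nondiabetic 21-week and nondiabetic 21-week against 6-week). Over all genes tested the shares were 14.9%, 15.8% and 7.47%. Proliferation genes had list medians of 0.08, 0.09 and −0.02 over 14 measured genes; Mki67, a marker of dividing cells, differed between diabetic and 6-week mice by 0.31 (adjusted p = 0.762). Of 12 measured imprinted and fetal growth genes, which decline after birth, the medians were −0.10, 0.11 and −0.19. Peg3 differed between the nondiabetic groups by −0.76 and Grb10, an inhibitor of insulin and growth factor receptors, by −0.54, and in diabetic against 6-week mice by −0.09 and −0.12 (adjusted p = 0.905 and 0.799).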
